A study of Danio rerio with 12 samples.

Results

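The genes described here code for the machinery that releases calcium inside skeletal muscle fibres, takes it back up and responds to it. They were chosen by symbol: ryanodine and IP3 receptors, voltage-gated calcium channel subunits, Stac proteins, junctophilins, triadin, aspartate beta-hydroxylase, SERCA pumps with sarcolipin and phospholamban, calsequestrins, sarcalumenin, and CaMKII with its inhibitor proteins. The rule named 91 of the 31962 genes listed, and 48 of these reached 10 counts in 3 or more of the 12 libraries, as did 16056 genes in all. The other 43 reached at most 15 counts in a library, 3 of them had 0 counts in every library, and they were not tested. The symbols of sarcolipin and phospholamban were not matched and have no value here. The prefix for ryanodine receptors also took ryroxd1, which the files describe as an oxidoreductase, so 47 of the 48 have a role in this machinery.

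In a muscle fibre, an action potential enters along the transverse tubules and is sensed by the dihydropyridine receptor, a voltage-gated calcium channel complex. This receptor faces the ryanodine receptors of the sarcoplasmic reticulum, which open and let calcium reach the contractile filaments. Junctophilins, triadin and Stac3 hold or tune this contact, calsequestrin binds calcium inside the reticulum, and SERCA pumps return it there so that the fibre relaxes. CaMKII is a kinase switched on by calcium and calmodulin, and small proteins of the Camk2n family inhibit it. Zebrafish carry duplicated copies of many of these genes, and some copies are known from slow fibres and others from fast fibres.

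White muscle RNA was sequenced from 4 groups of zebrafish with 3 libraries each: exercised Gr mutants, non-exercised Gr mutants, exercised wild-type fish and non-exercised wild-type fish. Wild-type fish were 3 months old when obtained, and no age is given for the mutants. Over 4 weeks exercised fish swam 6 h per day on 5 days of each week in water moving at 0.4 m/s, against 0.1 m/s for non-exercised fish. The Gr mutants (line gr s357) have a point mutation where the glucocorticoid receptor, the receptor for cortisol, binds DNA. The study does not say that the wild-type fish were siblings of the mutants, and it reports that mutants were bigger. Line background and body size therefore cannot be told apart from the mutation. Where a comparison is named after the mutation, it compares the genotypes. Fish of both genotypes shared a tunnel and were genotyped afterwards, but each exercise level had a single tunnel, so tunnel and exercise cannot be told apart. The study asked what exercise changes in white muscle and whether this needs the receptor.

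Counts on genes ranged between 7688323 and 13894240 per library, and the 48 genes together held 3.39 to 5.02% of them. Levels are given as CPM, the counts of a gene scaled by TMM to a common library size, and are not corrected for transcript length, so they can be compared between libraries but not between genes. A fold change is that of the group named first over the other, on the log2 scale, with its standard error (SE). Transcript levels of nr3c1, the mutated gene, were 36.9 to 66.7 CPM in the 6 Gr mutant libraries, against 27.4 to 59.8 CPM in the 6 wild-type libraries, which cannot show a point mutation. The summed fast muscle markers were at least 104055 CPM in every library, while of the heart markers cmlc1 had 0 counts, myl7 stayed at or below 0.0851 CPM and vmhc had 31.8 to 126 CPM. The summed heart markers were 109, 112 and 127 CPM in exercised mutants, against 62.3, 80.4 and 71.4 CPM in exercised wild-type fish, without overlap. Nearly all of this sum was vmhc, the only 1 of the 7 markers past the count filter. It had 109, 112 and 126 CPM in exercised mutants, against 61.2, 80.2 and 70.9 CPM in exercised wild-type fish. The part of these markers in the results was not tested. Non-exercised Gr mutant replicate 1 stood apart: it was the lowest of the 12 libraries for 16 of the 48 genes (33.3%), whereas it was lowest for 11.3% of all 16056 genes. Exercised Gr mutant replicate 2 was highest for 11 of the 48 (22.9%, against 9.31% of all genes). Exercised wild-type replicate 1 was highest for 9 (18.8%, against 6.61%) and exercised Gr mutant replicate 1 for 7 (14.6%, against 6.57%). Values without 1 of these libraries are given for some comparisons, but not for each gene.

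When all libraries were used, 5 of the 48 genes differed between genotypes, and none passed the same threshold for the effect of exercise. Relative to wild-type fish, Gr mutants had less camk2n1a and atp2a1 and more camk2d2, cacnb4b and itpr3. In this model, which tested genotype with exercise as the other term, 5 of 48 passed an adjusted p-value of 0.05 in edgeR's quasi-likelihood test (Benjamini-Hochberg over all genes). Of all 16056 genes tested 7.93% passed, so the share of this gene group, 10.4%, is near the background. Higher in mutants were 3 of the 48 (background 3.3%) and lower were 2 (background 4.63%). At an unadjusted p-value under 0.05 there were 11 of 48, with 25.4% of all genes. With 1 library left out there were 8 to 16, against 21.3 to 26.2% of all genes. The 16, of which 13 were higher, came without non-exercised Gr mutant replicate 1. There 24.5% of all genes had such a p-value, with 1954 of 15632 higher. The median log2 fold change of the 48 genes was 0.14 (0.07 to 0.24 with 1 library left out), and that of all genes tested was 0.06.

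**Figure D1:**
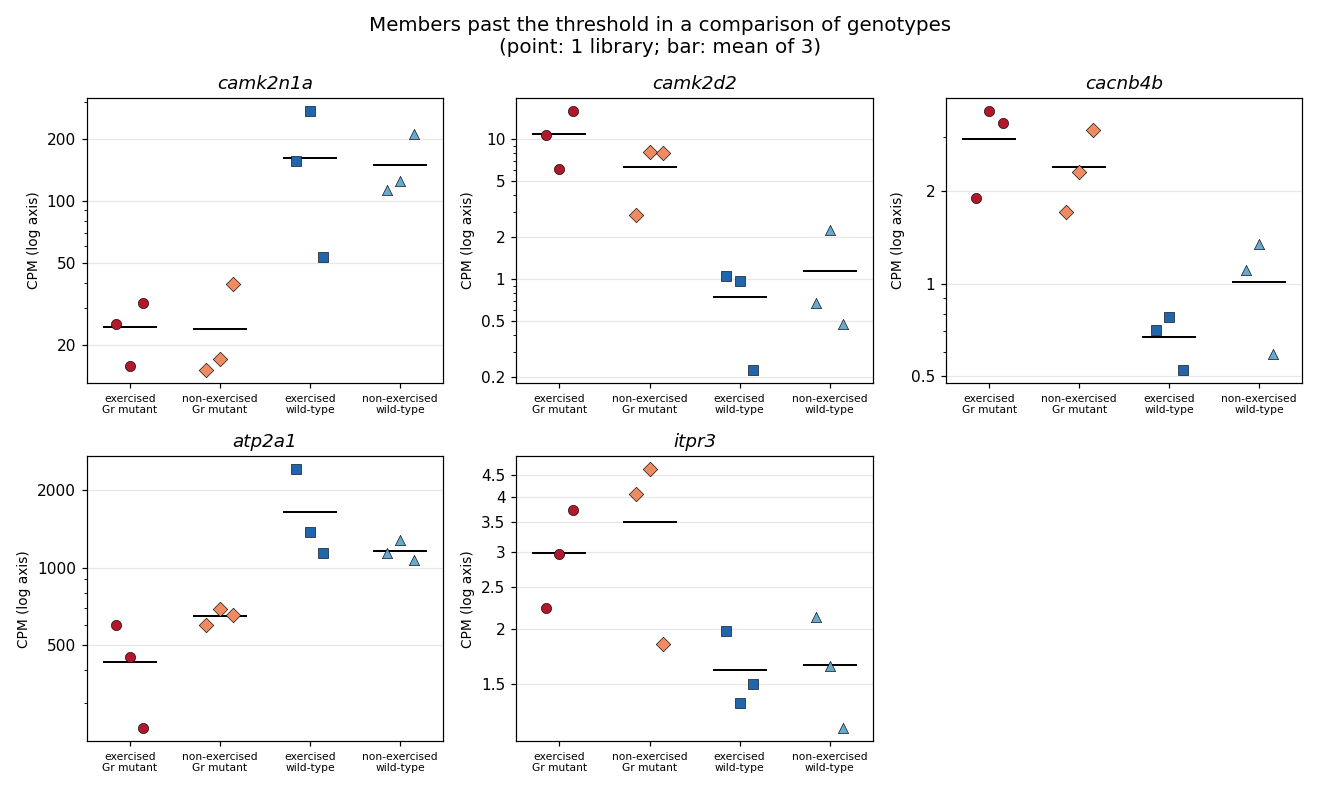
CPM on a log axis of camk2n1a, camk2d2, cacnb4b, atp2a1 and itpr3 in each library, by group from exercised Gr mutants (left) to non-exercised wild-type fish (right), with a bar at the mean of 3 libraries. All 6 mutant libraries lie below all 6 wild-type libraries for camk2n1a and atp2a1 and above them for camk2d2 and cacnb4b, and for itpr3 the genotypes overlap.

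The CaMKII inhibitor gene camk2n1a (ENSDARG00000025855, an ID to which the name table gives the symbol CAMK2N2) had the lowest p-value of the group. Its levels were 25.3, 15.7 and 31.8 CPM in exercised and 15.1, 17.1 and 39.3 CPM in non-exercised Gr mutants, against 156, 272 and 53.3 CPM in exercised and 113, 125 and 210 CPM in non-exercised wild-type fish. No mutant library reached the lowest wild-type library. Over both exercise levels the log2 fold change was -2.69 (SE 0.387, adjusted p = 0.00266, edgeR), and it passed with each of the 12 libraries left out in turn. Exercised wild-type replicate 3, at 53.3 CPM, was far below the other wild-type libraries, and the gene's level in it was closest to that of the mutants.

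A kinase gene of the same pathway moved the other way. The delta CaMKII gene camk2d2 (ENSDARG00000014273) had 10.8, 6.1 and 15.9 CPM in exercised and 2.89, 8.1 and 7.95 CPM in non-exercised Gr mutants, against 1.06, 0.973 and 0.225 CPM in exercised and 0.681, 2.26 and 0.475 CPM in non-exercised wild-type fish. These are few reads in wild-type fish, with 3 to 22 counts per library, and 37 to 140 counts in the mutants. Its log2 fold change was 3.18 (SE 0.493, adjusted p = 0.00392, edgeR), the call held in 12 of 12 omissions, and the genotypes did not overlap. The remaining kinase genes did not pass: camk2b1 had 115 to 227 CPM in mutants and 159 to 207 CPM in wild-type fish. For camk2g2 the values were 21.8, 20.4 and 18.7 CPM in exercised mutants, against 34.4, 38.0 and 29.9 CPM in exercised wild-type fish, which did not overlap (log2 fold change -0.78, adjusted p = 0.0597). Without exercise the same gene had 17.9, 21.9 and 28.2 CPM in mutants and 21.5, 23.2 and 24.2 CPM in wild-type fish, and these groups overlapped.

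Among the pumps, atp2a1 (ENSDARG00000020574), a SERCA1 gene whose loss in zebrafish slows relaxation, was lower in mutants. It had 599.7, 449 and 239 CPM in exercised and 597, 694 and 658 CPM in non-exercised Gr mutants, against 2406, 1371 and 1140 CPM in exercised and 1137, 1282 and 1071 CPM in non-exercised wild-type fish. The highest mutant library was below the lowest wild-type library, and the log2 fold change over both exercise levels was -1.39 (SE 0.294, adjusted p = 0.0152, edgeR), passing in 12 of 12 omissions. Its copy atp2a1l had 24108, 40094 and 30467 CPM in exercised and 28151, 20283 and 31103 CPM in non-exercised mutants, against 19384, 35306 and 25555 CPM in exercised and 38825, 32173 and 29426 CPM in non-exercised wild-type fish. The genotypes overlapped fully for this copy (adjusted p = 0.929). Reads of 50 nucleotides may be shared between such copies, so the split of counts between atp2a1 and atp2a1l is uncertain where their sequences are alike.

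The other pump genes did not pass. The SERCA2 copy atp2a2b had 5.11, 6.1 and 9.0 CPM in exercised mutants, against 16.6, 15.6 and 9.68 CPM in exercised wild-type fish, without overlap (log2 fold change -1.09, adjusted p = 0.088). Without exercise it had 9.09, 21.1 and 11.9 CPM in mutants and 8.6, 15.7 and 19.4 CPM in wild-type fish. For atp2a3, the SERCA3 gene, the non-exercised mutants had 14.4, 19.1 and 17.1 CPM, against 9.87, 10.8 and 11.1 CPM in non-exercised wild-type fish, which did not overlap either (log2 fold change 0.68, adjusted p = 0.195). Exercised fish overlapped in this gene, with 13.0 to 14.1 CPM in mutants and 10.5 to 15.1 CPM in wild-type fish.

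Among the channel subunits cacnb4b (ENSDARG00000062174), a beta subunit best known from the brain in mammals, was higher in mutants. It had 1.9, 3.63 and 3.32 CPM in exercised and 1.71, 2.31 and 3.14 CPM in non-exercised Gr mutants, against 0.708, 0.778 and 0.525 CPM in exercised and 1.11, 1.34 and 0.593 CPM in non-exercised wild-type fish. Its counts were low, 22 to 40 in mutants and 7 to 13 in wild-type fish. The genotypes did not overlap, and the log2 fold change was 1.66 (SE 0.302, adjusted p = 0.00768, edgeR), passing in 12 of 12 omissions. The beta subunit of the muscle receptor itself, cacnb1, whose loss paralyses zebrafish larvae, is described with exercise.

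The IP3 receptor gene itpr3 (ENSDARG00000061741), which codes for a release channel opened by inositol trisphosphate, was near the threshold. It had 2.23, 2.97 and 3.74 CPM in exercised and 4.07, 4.63 and 1.85 CPM in non-exercised Gr mutants, against 1.98, 1.36 and 1.5 CPM in exercised and 2.13, 1.65 and 1.19 CPM in non-exercised wild-type fish. Only non-exercised Gr mutant replicate 3 fell within the wild-type range. The log2 fold change was 0.99 (SE 0.262, adjusted p = 0.0368, edgeR), but the call held in just 3 of the 12 omissions, with adjusted p-values of 0.013 to 0.0927. The other IP3 receptor genes, itpr1a, itpr1b and itpr2, did not pass in any comparison and ranged between 1.36 and 7.83 CPM.

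Each exercise level was then compared on its own 6 libraries. With exercise, mutants differed from wild-type fish in 4 of the 47 genes tested, against 3.02% of all 14106 genes (426 genes). The genes camk2d2 (log2 fold change 3.82, adjusted p = 0.0161) and cacnb4b (2.06, adjusted p = 0.0372) were higher, where 0.652% of all genes were higher. Lower were camk2n1a (-2.75, adjusted p = 0.0395) and atp2a1 (-1.98, adjusted p = 0.046), where 2.37% of all genes were lower. These calls changed when 1 library was left out. None of the 47 genes passed without exercised Gr mutant replicate 2, without exercised Gr mutant replicate 3 or without exercised wild-type replicate 2. There was 1 without exercised wild-type replicate 1, 3 without exercised Gr mutant replicate 1 and 4 without exercised wild-type replicate 3. The share of all genes passing in these omissions is not given. The counts printed here therefore do not tell a general loss of calls with fewer libraries from a loss particular to these genes. Exercised Gr mutant replicate 3 had summed oocyte markers of 200.1 CPM, against at most 19.3 CPM in the other libraries. Exercised wild-type replicate 2 had summed erythrocyte markers of 3071 CPM, against at most 587 CPM in the others. The part of such tissue in these calls was not tested.

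Many more of the 47 genes separated the exercised groups without passing this threshold. An unadjusted p-value under 0.05 was found for 20 genes (42.6%), against 19.5% of all genes tested. Of these, 14 were higher in exercised mutants, against 7.88% of all genes, and 6 were lower, against 11.6%. Groups did not overlap for 19 of the 47 genes, against 25.3% of all genes, with 14 higher (12.5% of all genes) and 5 lower (12.8%). With any of the 6 libraries left out, 15 to 20 genes of the group had such a p-value, against 15.5 to 19.3% of all genes. DESeq2, run as an alternative, passed 12 of the 47 genes at its adjusted p-value of 0.05, and 7.93% of the 11904 genes to which it gave an adjusted p-value.

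**Figure D2:**
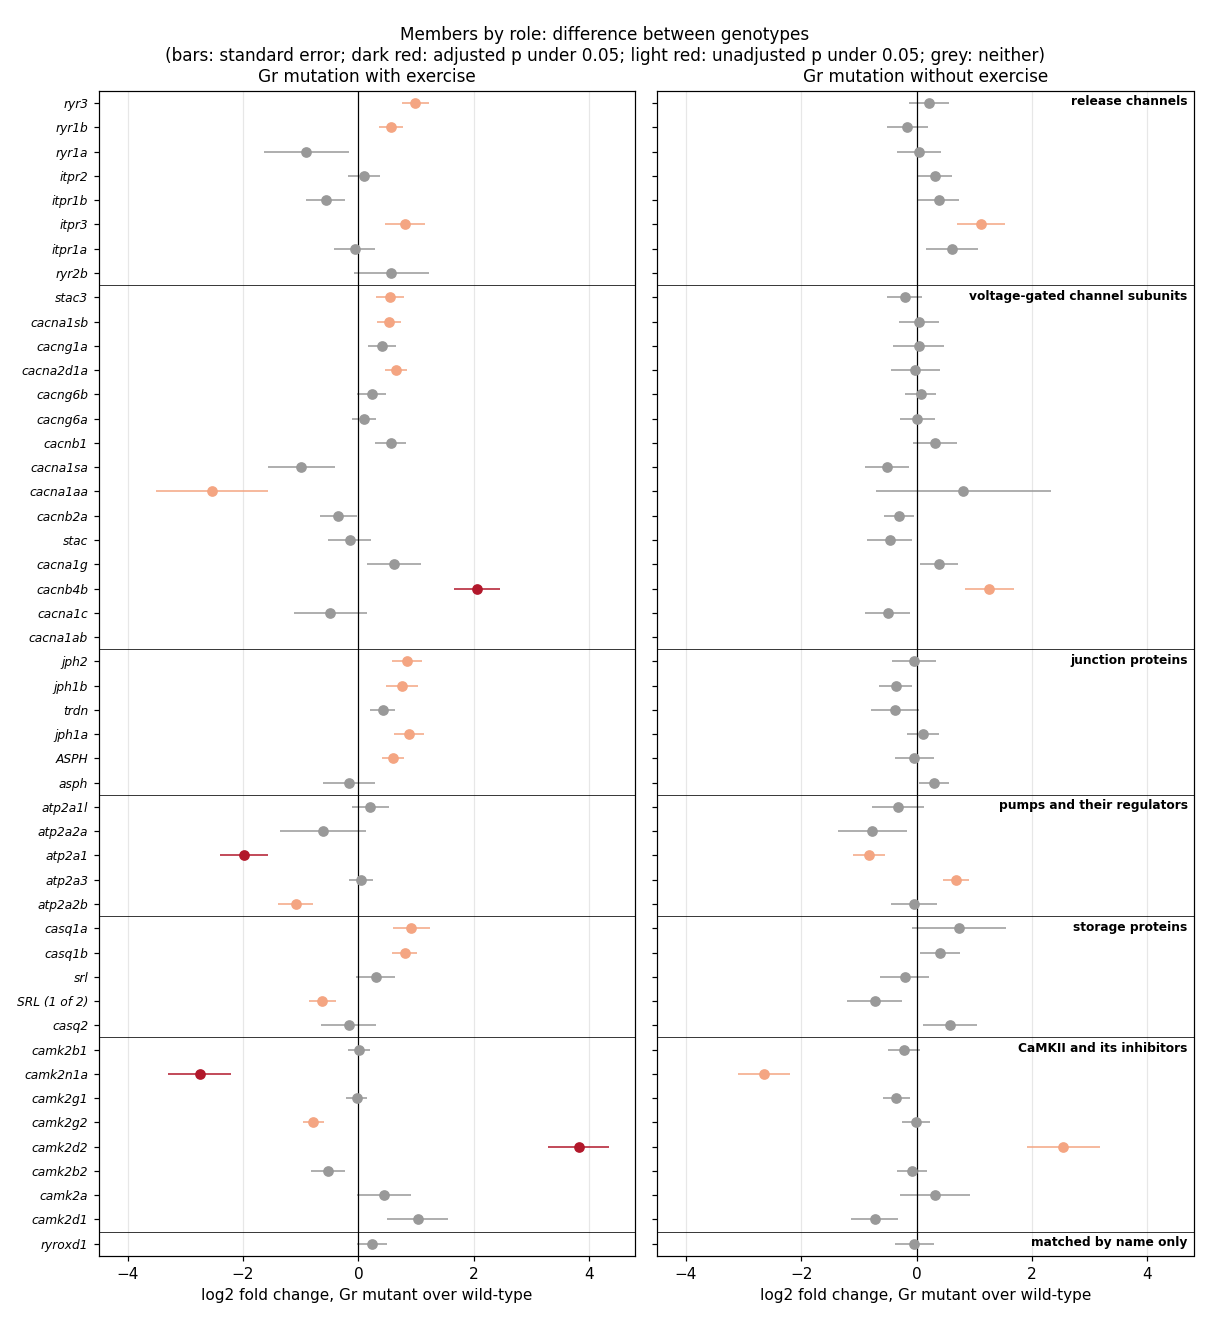
Log2 fold changes of Gr mutant over wild-type fish with their standard errors for the 48 genes, ordered by role and by mean CPM within a role, with exercise (left) and without (right); dark red marks an adjusted p-value under 0.05 and light red an unadjusted one. With exercise 29 of the 47 genes tested lie above 0 (6967 of all 14106 genes), and without exercise 22 of 46 do (8041 of all 15011). Junction proteins have a median of 0.68 with exercise and pumps one of -0.61.

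The 14 genes on the higher side included release channels, channel subunits, junction genes and storage genes. The ryanodine receptor ryr3 had 2689, 3287 and 3248 CPM in exercised mutants, against 1235, 1805 and 1505 CPM in exercised wild-type fish (log2 fold change 0.99, SE 0.238, adjusted p = 0.063). Its level in non-exercised mutants was 1461, 1675 and 2352 CPM, against 1491, 2003 and 1294 CPM in non-exercised wild-type fish. All exercised mutants were thus above the other 9 libraries in ryr3. The fast-fibre copy ryr1b had 1385, 1235 and 1359 CPM in exercised mutants, against 776, 975 and 885 CPM in exercised wild-type fish (log2 fold change 0.56, adjusted p = 0.183). Without exercise ryr1b had 649, 899.9 and 1329.8 CPM in mutants and 919, 1190 and 1137 CPM in wild-type fish, so that those groups overlapped.

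Of the 14 voltage-gated channel subunits tested with exercise, 9 had fold changes above 0, as did 6967 of all 14106 genes tested. The fast-fibre pore subunit cacna1sb had 359, 422 and 388 CPM in exercised mutants, against 231, 299 and 263 CPM in exercised wild-type fish (log2 fold change 0.53, adjusted p = 0.198). The groups did not overlap, and without exercise they did, with 130.1, 247 and 302 CPM in mutants and 187, 261 and 219 CPM in wild-type fish. The alpha2delta subunit cacna2d1a, which was chosen after its values were seen, had 159, 141 and 151 CPM in exercised mutants, against 90.5, 102 and 89.0 CPM in exercised wild-type fish (log2 fold change 0.65, adjusted p = 0.0995). Stac3, an adaptor that couples the sensor to the release channel, had 293, 381 and 269.9 CPM in exercised mutants, against 162, 247 and 221 CPM in exercised wild-type fish (log2 fold change 0.55, adjusted p = 0.254).

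Fold changes were above 0 for 5 of the 6 junction genes and 3 of the 5 storage genes, and for 6967 of all 14106 genes tested. Junctophilins tie the surface membrane to the reticulum, and jph2 had 559, 955 and 894 CPM in exercised mutants, against 389.8, 465 and 459.8 CPM in exercised wild-type fish (log2 fold change 0.84, adjusted p = 0.12). For jph1a the values were 49.1, 81.1 and 44.2 CPM in exercised mutants, against 32.2, 29.7 and 30.5 CPM in exercised wild-type fish (log2 fold change 0.88, adjusted p = 0.108), and for jph1b they were 512, 931 and 617 CPM, against 327, 476 and 393 CPM (0.76, adjusted p = 0.182). None of these 3 pairs of groups overlapped. The median log2 fold change of the 6 junction genes with exercise was 0.68, and that of all genes tested was -0.01. The median was 0.33 for release channels, 0.32 for channel subunits and 0.3 for storage genes. CaMKII genes with their inhibitor had a median of -0.01 and pumps one of -0.61.

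Calsequestrin is the main calcium store of the reticulum. The gene casq1b had 649.6, 705 and 625 CPM in exercised mutants, against 307, 453 and 356 CPM in exercised wild-type fish (log2 fold change 0.8, SE 0.218, adjusted p = 0.088). Without exercise it had 507, 368 and 764 CPM in mutants and 402, 495 and 350.2 CPM in wild-type fish. Its copy casq1a had 2742, 3815 and 5740.4 CPM in exercised mutants, against 1771, 2458 and 2153 CPM in exercised wild-type fish (log2 fold change 0.92, adjusted p = 0.151), again without overlap. In non-exercised fish casq1a spread widely, with 377, 1900.2 and 4639.8 CPM in mutants and 869.7, 2469 and 828 CPM in wild-type fish.

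Sarcalumenin, another calcium-binding protein of the reticulum, is listed under 2 IDs. The first, srl, had 209.9, 517 and 465 CPM in exercised mutants, against 340, 321 and 281 CPM in exercised wild-type fish. These groups overlapped. The second, SRL (1 of 2), had 56.6, 58.9 and 81.5 CPM in exercised mutants, against 107, 109 and 80.3 CPM in exercised wild-type fish (log2 fold change -0.63, adjusted p = 0.186), where 1 mutant library lay within the wild-type range.

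The summed fast muscle markers also separated the exercised groups. Their sum was 197113, 277312 and 269253 CPM in exercised mutants, against 107598, 179820.5 and 123535 CPM in exercised wild-type fish. These groups did not overlap. Without the parvalbumin genes pvalb1 and pvalb2, a choice made after seeing the data, the sums overlapped, with 159784, 212578 and 202878 CPM in exercised mutants, against 95607, 160201 and 111738 CPM in exercised wild-type fish. Only the lowest exercised mutant sum, 159784 CPM, lay below the highest exercised wild-type sum, 160201 CPM. Of the 17 genes of that list 10 were higher in exercised mutants without overlap, tnni2a.4 was lower without overlap, and 6 overlapped, ckma and actn3b among them. The genes mylpfb, tnnt3a and acta1a did not exceed 55.1 CPM in any library. Without exercise the sums overlapped, with 107399, 140937 and 223589 CPM in mutants and 165977, 198428 and 104055 CPM in wild-type fish. The part of these markers in the differences of the release unit was not tested. In such bulk samples more fibres of a type and more RNA per fibre cannot be told apart.

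Without exercise, none of the 46 genes tested differed between genotypes in edgeR's test, while 0.233% of all genes did (35 genes). DESeq2 passed 3, which were camk2n1a, camk2d2 and atp2a1, and 5.49% of the genes to which it gave an adjusted p-value. The unadjusted p-value was under 0.05 for 6 genes, against 17.2% of all genes, and groups did not overlap for 8 genes, against 22% of all genes. For 4 of the 5 genes called over both exercise levels, the fold changes without exercise were -2.64 for camk2n1a (SE 0.45, adjusted p = 0.0744), 2.54 for camk2d2 (SE 0.631, adjusted p = 0.143), 1.26 for cacnb4b (SE 0.422, adjusted p = 0.198) and -0.83 for atp2a1 (SE 0.282, adjusted p = 0.203), all on the log2 scale. Each of these 4 genes had mutant and wild-type groups that did not overlap. The remaining called gene, itpr3, had a log2 fold change of 1.12 (SE 0.42, adjusted p = 0.231, edgeR), and its groups overlapped. The median over the 46 genes was -0.02 and moved to 0.13 without non-exercised Gr mutant replicate 1 and to -0.25 without non-exercised Gr mutant replicate 3.

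**Figure D3:**
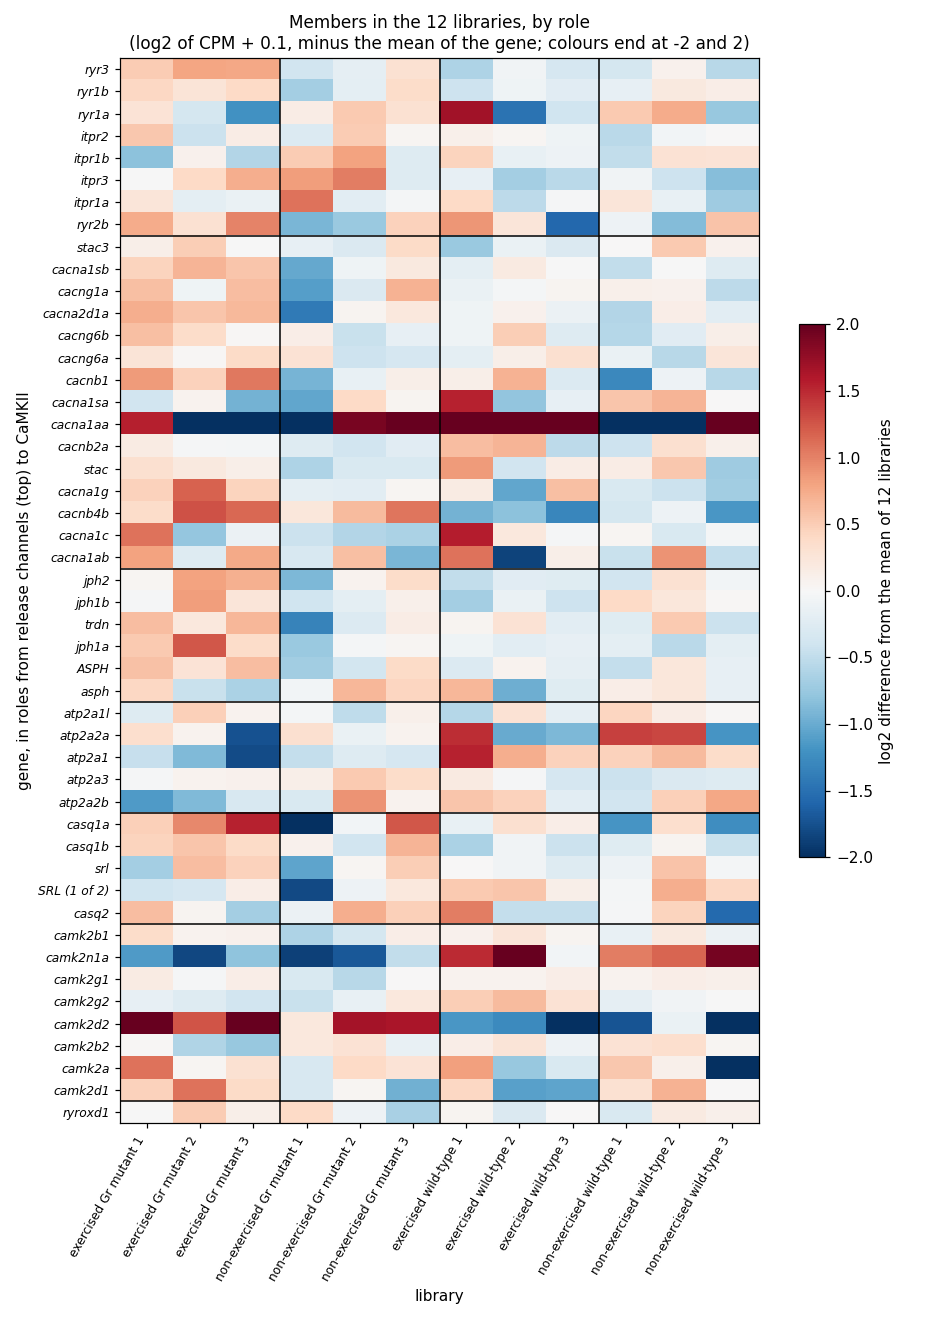
Level of each of the 48 genes (rows, by role) in each of the 12 libraries (columns, in the order exercised Gr mutant, non-exercised Gr mutant, exercised wild-type, non-exercised wild-type), as the difference of log2 of CPM + 0.1 from the gene's mean. Non-exercised Gr mutant replicate 1 is the lowest library for 16 genes, and cacna1aa switches between libraries of the same group.

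Exercise moved no gene of the group past the threshold. In wild-type fish 0 of 46 genes passed in edgeR's test, where 0.37% of all genes did. Of the 46, 4 had an unadjusted p-value under 0.05, where 13.9% of all genes did. Without non-exercised wild-type replicate 1 there were 2, where 11.7% of all genes did. DESeq2 also passed 0 of the 46, and 395 of the 12596 genes to which it gave an adjusted p-value. Exercised and non-exercised wild-type groups did not overlap for 3 genes, against 20.4% of all genes. One was camk2g2, with 34.4, 38.0 and 29.9 CPM in exercised and 21.5, 23.2 and 24.2 CPM in non-exercised wild-type fish (log2 fold change 0.57, adjusted p = 0.196). The others were jph1b, with 327, 476 and 393 CPM in exercised and 690.3, 613 and 533 CPM in non-exercised wild-type fish (-0.62, adjusted p = 0.275), and stac3, with 162, 247 and 221 CPM in exercised and 271, 388 and 286 CPM in non-exercised wild-type fish (-0.58, adjusted p = 0.338).

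In Gr mutants 0 of 47 genes passed in edgeR's test and 0% of all 14584 genes did. DESeq2 passed 0 of the group, and 105 of the 11448 genes to which it gave an adjusted p-value. At an unadjusted p-value under 0.05 there were 6 genes, against 10.5% of all genes, of which 5 were higher with exercise, against 4.88%. Groups did not overlap for 12 genes, against 16.2% of all genes, and 10 of the 12 were higher in exercised mutants, against 9.11% of all genes. The clearest by p-value was cacnb1, with 23.9, 18.1 and 27.5 CPM in exercised and 6.9, 11.9 and 14.3 CPM in non-exercised mutants (log2 fold change 1.08, SE 0.317, adjusted p = 0.427). Next came jph1a, with 49.1, 81.1 and 44.2 CPM in exercised and 20.5, 33.5 and 35.2 CPM in non-exercised mutants (0.97, adjusted p = 0.444). On the lower side atp2a2b had 5.11, 6.1 and 9.0 CPM in exercised and 9.09, 21.1 and 11.9 CPM in non-exercised mutants (-1.07, adjusted p = 0.444).

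The median log2 fold change with exercise in mutants was 0.32 over the 47 genes and -0.02 over all genes tested. Without non-exercised Gr mutant replicate 1 it was 0.25, and 4 genes instead of 6 had an unadjusted p-value under 0.05, against 11.1% of all genes. Without non-exercised Gr mutant replicate 3 it was 0.5, and 13 genes did, against 14.2% of all genes. There were 3 such genes without exercised Gr mutant replicate 2 (6.63% of all genes) and 3 without non-exercised Gr mutant replicate 2 (7.82%). The share of all genes thus moved with the omitted library as well. Non-exercised Gr mutant replicates 1 and 3 lie at opposite ends of their group for casq1a, ryr1b and cacna1sb.

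Over both genotypes 0 of 48 genes passed for exercise in edgeR's test, against 1.24% of all genes. An unadjusted p-value under 0.05 was found for 5 genes, against 15.1% of all genes, and all 5 were higher with exercise, against 7.79%. With 1 library left out there were 2 to 9 such genes, against 13.2 to 16.3% of all genes. Without exercised wild-type replicate 1 there were 8, of which 3 were lower, against 14.2% of all genes. DESeq2 passed cacnb1 alone of the 48, and 5.75% of the genes to which it gave an adjusted p-value. This gene had 14.3, 21.3 and 10.9 CPM in exercised and 5.36, 12.3 and 8.9 CPM in non-exercised wild-type fish, so those groups overlapped while the mutant groups did not. Its log2 fold change over both genotypes was 0.94 (SE 0.248, adjusted p = 0.0794, edgeR), with 0.0722 to 0.169 over the 12 omissions. The T-type channel gene cacna1g had 2.39, 3.96 and 2.35 CPM in exercised and 1.47, 1.45 and 1.76 CPM in non-exercised mutants, against 1.91, 0.778 and 2.63 CPM in exercised and 1.36, 1.23 and 1.01 CPM in non-exercised wild-type fish (log2 fold change with exercise 0.73, adjusted p = 0.226).

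**Figure D4:**
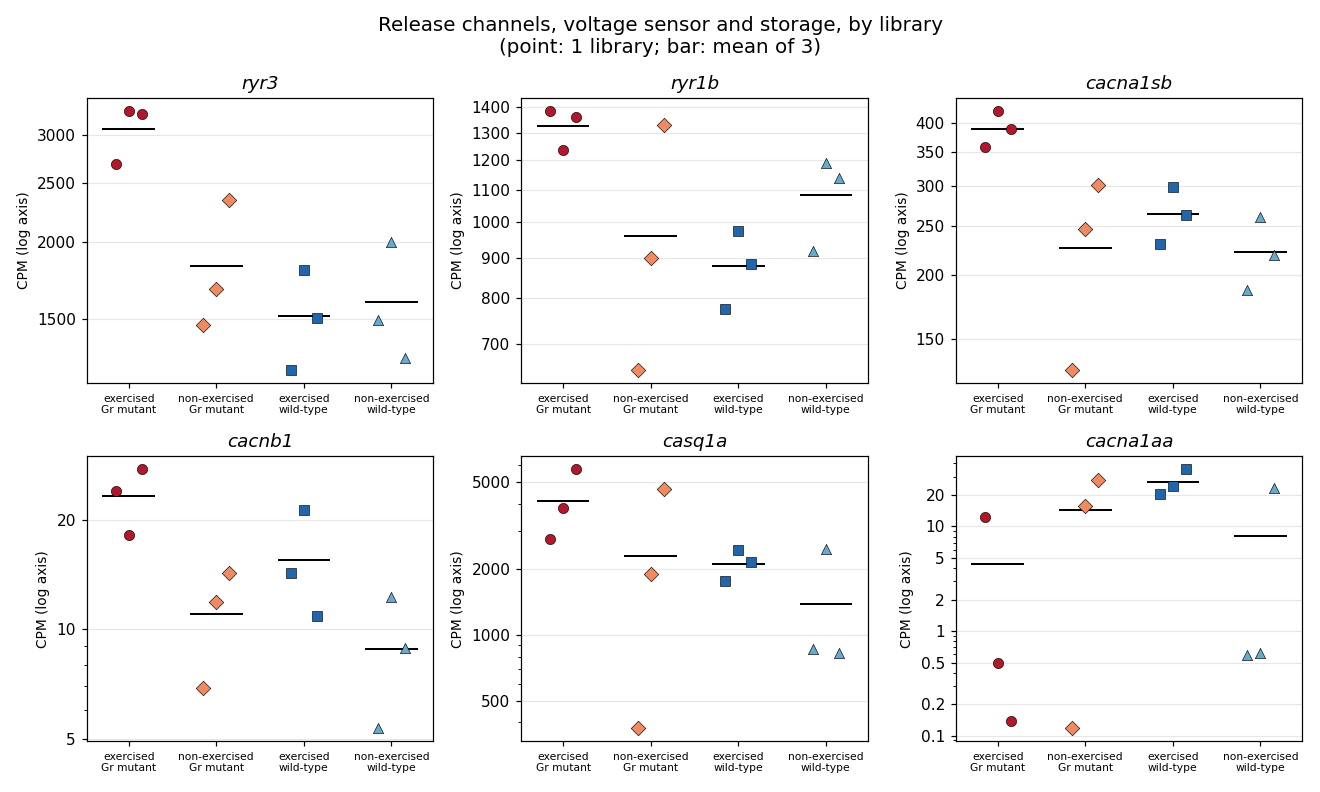
CPM on a log axis of ryr3, ryr1b, cacna1sb, cacnb1, casq1a and cacna1aa in each library, by group from exercised Gr mutants (left) to non-exercised wild-type fish (right), with a bar at the mean of 3 libraries. The exercised mutants lie above the exercised wild-type fish in ryr3, ryr1b, cacna1sb and casq1a, and cacna1aa falls into high and near-zero libraries within 3 of the 4 groups.

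The difference between the responses to exercise was tested as an interaction over all 12 libraries. It passed for 0 of 48 genes in edgeR's test and for 0% of all genes. DESeq2 passed 0 of the 48, and 32 of the 15688 genes to which it gave an adjusted p-value. At an unadjusted p-value under 0.05 there were 4 genes, against 8.39% of all genes. With 1 library left out there were 2 to 11, against 6.52 to 10.8% of all genes. Without non-exercised Gr mutant replicate 1 there were 6, of which 2 were higher, against 9.64% of all genes. The 11, of which 10 were higher, came without non-exercised Gr mutant replicate 3, where 10.8% of all genes had such a p-value. The 4 genes were jph1b (interaction 1.16 on the log2 scale, SE 0.392, adjusted p = 0.491), camk2d1 (1.83, SE 0.678, adjusted p = 0.527), camk2g2 (-0.72, SE 0.286, adjusted p = 0.551) and atp2a1 (-1.09, SE 0.5, adjusted p = 0.591). The gene jph1b had 512, 931 and 617 CPM in exercised and 398, 456 and 563 CPM in non-exercised mutants, which overlapped. A low-count gene, camk2d1, had 1.9, 2.97 and 1.8 CPM in exercised and 1.06, 1.39 and 0.647 CPM in non-exercised mutants, against 1.84, 0.584 and 0.6 CPM in exercised and 1.7, 2.26 and 1.36 CPM in non-exercised wild-type fish. These responses were therefore not shown to differ between the genotypes.

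Genes known from slow fibres varied widely within groups. The slow pump gene atp2a2a had 1102, 923 and 260.4 CPM in exercised and 1095, 798 and 922 CPM in non-exercised Gr mutants, against 2429.6, 433 and 467 CPM in exercised and 2267, 2201 and 386 CPM in non-exercised wild-type fish. Each wild-type group thus held both high and low libraries. The slow-fibre release channel ryr1a had 59.3, 38.3 and 21.0 CPM in exercised and 54.1, 70.5 and 60.4 CPM in non-exercised mutants, against 157, 17.5 and 37.2 CPM in exercised and 70.7, 82.1 and 29.0 CPM in non-exercised wild-type fish. Its genotypes overlapped at both exercise levels, as did those of atp2a2a.

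The slow-fibre sensor gene cacna1sa had 9.07, 12.4 and 6.09 CPM in exercised and 5.72, 15.6 and 12.3 CPM in non-exercised mutants, against 34.5, 6.81 and 10.6 CPM in exercised and 17.4, 19.1 and 11.9 CPM in non-exercised wild-type fish. Calsequestrin casq2, the form of cardiac and slow muscle in mammals, had 35.2, 23.9 and 14.3 CPM in exercised and 21.1, 37.9 and 31.9 CPM in non-exercised mutants, against 46.6, 16.5 and 16.5 CPM in exercised and 22.6, 31.2 and 7.77 CPM in non-exercised wild-type fish. None of these 4 genes had an unadjusted p-value under 0.05 in any comparison.

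Slow muscle markers also varied widely within groups. The summed markers (10 genes measured, 9 past the count filter) were 2018, 1616 and 754 CPM in exercised and 1957, 2685 and 2916 CPM in non-exercised mutants, against 5140.5, 826 and 1160.4 CPM in exercised and 3053, 3536 and 734 CPM in non-exercised wild-type fish. Exercised wild-type replicate 1 had the highest sum and the highest level of atp2a2a, ryr1a, cacna1sa and casq2 among the 12 libraries. Low libraries did not match for every gene. The gene cacna1sa was lowest in non-exercised Gr mutant replicate 1 (5.72 CPM), where the sum was 1957 CPM. It had 11.9 CPM in non-exercised wild-type replicate 3, where the sum was lowest. The part of slow muscle in the levels of these genes was not tested.

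**Figure D5:**
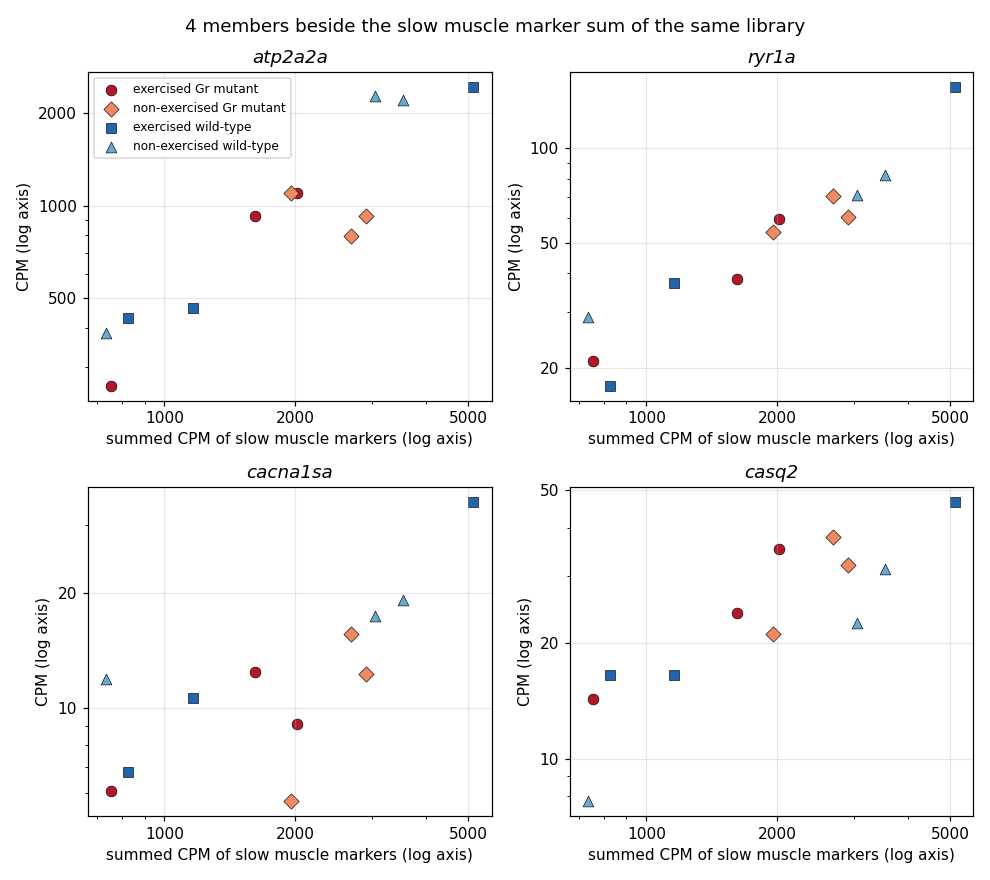
CPM of atp2a2a, ryr1a, cacna1sa and casq2 (vertical, log axis) against the summed CPM of slow muscle markers (horizontal, log axis) in each of the 12 libraries, marked by group. Exercised wild-type replicate 1 lies highest on both axes for all 4 genes, and libraries with a sum of 1160.4 CPM or less come from 3 groups.

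Copies of a gene kept different shares of their joint counts, given here as a description without a test and not corrected for transcript length. The copy ryr1a held 1.52 to 16.9% of the counts of ryr1a and ryr1b, cacna1sa 1.54 to 13.0% of the cacna1s pair, and jph1a 3.72 to 8.97% of the jph1 pair. In contrast atp2a2a held 95.2 to 99.6% of the counts of atp2a2a and atp2a2b. The copy casq1a held 80.8 to 90.2% of the casq1 pair in exercised mutants, against 84.4 to 85.8% in exercised wild-type fish. Non-exercised groups spread more, with 42.6 to 85.9% in mutants and 68.4 to 83.3% in wild-type fish, and the lowest share was that of non-exercised Gr mutant replicate 1. The copy itpr1a held 21.8 to 55.0% of the itpr1 pair, and cacng6a 38.0 to 54.3% of the cacng6 pair.

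The gene cacna1aa, of the pore subunit of presynaptic calcium channels and chosen after its values were seen, split the libraries within groups. It had 12.4, 0.495 and 0.138 CPM in exercised and 0.118, 15.7 and 27.7 CPM in non-exercised mutants, against 20.5, 24.1 and 35.3 CPM in exercised and 0.596, 0.617 and 23.1 CPM in non-exercised wild-type fish. Thus 7 libraries held 150 to 471 counts and 5 held 1 to 7, with both kinds in 3 of the 4 groups. No other of the 16056 genes separated these 7 libraries from these 5 by 3 times or more. Gr mutants over wild-type fish had a log2 fold change of -2.54 with exercise (SE 0.977, adjusted p = 0.197, edgeR). Among the alternatives run, this passed only without exercised Gr mutant replicate 1 (-6.43, adjusted p = 0.022). Exercise in wild-type fish passed for this gene only without non-exercised wild-type replicate 3. Summed neuron markers were 3.13, 13.7 and 23.9 CPM in exercised and 13.6, 3.76 and 4.9 CPM in non-exercised mutants, against 6.87, 1.26 and 17.5 CPM in exercised and 5.45, 6.89 and 1.19 CPM in non-exercised wild-type fish, and of the 4 highest sums 3 were in libraries with 1 to 7 counts of cacna1aa.

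Other calcium handling genes were read from a second list: parvalbumins, calmodulins, FK506-binding proteins, store-operated entry, mitochondrial uptake, calcineurin and NFAT, troponin C and myosin light chain kinases. Of 81 genes listed, 67 were tested over all libraries. For the mutation over both exercise levels 1 was higher and 2 were lower past the threshold (4.48%, against 7.93% of all genes), and for exercise none passed in edgeR's test, with 6 at an unadjusted p-value under 0.05 (8.96%, against 15.1% of all genes).

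The gene that was higher is fkbp1b, whose protein binds ryanodine receptors in mammals. It ranged between 52.7 and 120.4 CPM in exercised and between 8.67 and 90.4 CPM in non-exercised mutants, against 14.4 to 21.2 CPM in exercised and 5.11 to 19.8 CPM in non-exercised wild-type fish (log2 fold change 2.13, SE 0.486, adjusted p = 0.0203). The genes that were lower are the kinase genes mylk4b (-1.77, adjusted p = 0.00442, edgeR) and mylk4a (-2.22, adjusted p = 0.0334, edgeR). For mylk4b the range was 8.08 to 14.6 CPM in exercised and 10.8 to 13.7 CPM in non-exercised mutants. In wild-type fish it was 17.1 to 59.3 CPM with exercise and 28.9 to 58.5 CPM without. For mylk4a exercised mutants had 28.4 to 108 CPM, against 57.1 to 539 CPM in exercised wild-type fish, with overlap. Without exercise mylk4a had 19.9 to 128 CPM in mutants, against 173 to 433 CPM in wild-type fish, without overlap. With exercise 2 of 66 genes passed (3.03%, against 3.02% of all genes), both higher in mutants: fkbp1b (2.1, adjusted p = 0.0201) and pvalb1, a parvalbumin that buffers calcium in fast fibres (2.54, adjusted p = 0.0184). Parvalbumin pvalb1 had 20064 to 35269 CPM in exercised mutants, against 3555 to 7277 CPM in exercised wild-type fish. Parvalbumin pvalb2 was also higher (1.49, adjusted p = 0.0579, edgeR). In contrast pvalb4 was lower, with 11032 to 16179.8 CPM in exercised mutants, against 19547 to 27565 CPM in exercised wild-type fish (-0.69, adjusted p = 0.222, edgeR). Of the 66 genes, 15 had an unadjusted p-value under 0.05 with exercise (22.7%, against 19.5% of all genes), 7 higher and 8 lower.

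The remaining genes of the group, namely ryr2b, cacng1a, cacng6a, cacng6b, cacnb2a, cacna1c, cacna1ab, stac, trdn, the 2 aspartate beta-hydroxylase IDs (asph and ASPH), camk2a, camk2b2, camk2g1 and ryroxd1, passed in no comparison. Of these the triadin gene trdn, an anchor of calsequestrin at the release channel and chosen after its values were seen, had 95.6, 72.6 and 99.0 CPM in exercised and 24.8, 51.8 and 69.1 CPM in non-exercised mutants (log2 fold change with exercise 0.88, adjusted p = 0.466), without overlap. It had 64.8, 76.2 and 54.2 CPM in exercised and 52.7, 90.2 and 46.4 CPM in non-exercised wild-type fish, with overlap. For ryroxd1 the range was 2.4 to 5.44 CPM over all libraries.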

How the data were processed

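White muscle RNA of 12 samples was sequenced as single-end reads of 50 nucleotides from an unstranded kit. According to the methods and the submitters' processing notes, the authors aligned reads to GRCz10 with TopHat2 2.0.5, removed secondary alignments with SAMtools 0.1.18 and counted reads per gene with HTSeq 0.5.3p9. The deposited values used here are these raw counts, between 7688323 and 13894240 per library. Columns with the authors' DESeq fold changes and p-values were not used. The methods give 3 fish per group and the labels 3 samples, so p-values measure the spread between fish that shared a tunnel. Depth limits genes with few counts.

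Counts were fitted with edgeR 4.0.16 (R 4.3.3; quasi-likelihood test, TMM, at least 10 counts in at least 3 libraries, Benjamini-Hochberg over all genes, threshold 0.05) in 4 pairwise comparisons of 6 libraries, which share libraries, and 3 models over all 12. Standard errors were derived from the F statistic. CPM use TMM factors of all 12 libraries. Transcript lengths were not used, so no level was compared between genes; mean CPM served only to choose and order genes, and shares of copies are shares of counts. With 3 libraries per group the smallest exact permutation p-value is 0.1, so that test was not run. Tests were two-sided and were tested on simulated data, where DESeq2 made a larger share of false calls than edgeR, mostly above its nominal rate, and the limit set for it was loosened after this was seen.

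The genes, lists and tests were chosen with earlier results of these data known. Named are genes past the threshold in a fit, the 3 lowest p-values of each fit, the highest mean CPM of each role, and a fixed set of release, sensor, pump and storage genes; others are said to be chosen after their values were seen. Alternatives were RLE normalization, DESeq2 1.42.0, no filter or a filter of 50 counts, a replicate block, other thresholds, 1 fit of all libraries, and each library left out.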

Additional observations from a re-analysis of the deposited data

How the results depend on the processing

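With the mutation over both exercise levels, 4 to 5 genes passed when 1 library was left out, and camk2n1a, camk2d2, cacnb4b and atp2a1 passed each time. Unadjusted, 11 of 48 had a p-value under 0.05 (25.4% of all genes), and 8 to 16 did with 1 library left out (21.3 to 26.2%). With exercise, the mutation gave 12 of 47 genes by DESeq2 (7.93% of the genes with an adjusted p-value). It gave 3 with RLE normalization (without atp2a1; 368 of all 14106 genes) and 1 (atp2a1) with a replicate block (223 of 14106). With the filter of 50 counts 6 of 34 genes passed, and 598 of all 7856. That filter removed camk2d2 and cacnb4b before testing, and cacna2d1a, camk2g2, casq1b and ryr3 were called. There were 9 of 47 at an adjusted p-value under 0.1 (1118 of 14106), 20 at an unadjusted p-value under 0.05 (19.5% of all genes), and 0 to 4 with 1 library left out. Without exercise the mutation gave 3 of 46 by DESeq2 (5.49% of the genes with an adjusted p-value) and 1 of 48 (camk2n1a) with no count filter (126 of 25937). It also gave 1 in 1 fit of all 12 libraries, 1 at an adjusted p-value under 0.1 (163 of 15011), 6 unadjusted (17.2% of all genes), and 0 to 1 with 1 library left out. Exercise over both genotypes gave 1 gene (cacnb1) by DESeq2 (5.75% of the genes with an adjusted p-value), with the filter of 50 counts (327 of 9583 genes) and at an adjusted p-value under 0.1 (569 of 16056). It gave 5 unadjusted (15.1% of all genes). Exercise in wild-type fish gave 4 unadjusted (13.9% of all genes) and 0 to 1 with 1 library left out. Exercise in Gr mutants gave 6 unadjusted (10.5%), and the interaction 4 unadjusted (8.39%). The share of all genes passing is not given for adjusted counts with 1 library left out or for 1 fit of all libraries. Those counts therefore have no background here. With pvalb1 and pvalb2 left out, after seeing the data, the median fast marker sum was 202878 CPM in exercised mutants, against 111738 CPM in exercised wild-type fish. The cause was not tested. Of the 54 fold changes with an unadjusted p-value under 0.05 among the named genes, cacna1aa, trdn and cacna2d1a, none changed sign under 731 alternatives; those with higher p-values were not counted, and some near 0 did, such as atp2a1l over both exercise levels (-0.17 to 0.06 with 1 library left out).

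The replicate numbers were not shown to pair the fish: same-numbered libraries correlated by -0.121 to 0.165 in their deviations. With the replicate block, 4 genes instead of 5 passed for the mutation over both exercise levels. Of all 16056 genes 842 passed with it, instead of 1274. Depth limits camk2d2, cacnb4b and itpr3, and over both exercise levels the filter of 50 counts removed cacnb4b and itpr3 before testing.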
